A study of Mus musculus with 6 samples.

Results

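*Shank1*, *Shank2* and *Shank3* are the 3 genes of the Shank family of scaffold proteins, and the account here follows them through RNA-seq of the mouse mPFC. They were found by their Ensembl gene identifiers, named with GENCODE release M21, and all 3 were present among the 18254 genes of the deposited table. There were 6 libraries, 3 from *Shank3* TG mice and 3 from their WT littermates, all from males on a C57BL/6J background aged 10 to 12 weeks. The *Shank3* TG mice carry an EGFP-*Shank3* transgene in addition to their own *Shank3* alleles, and its promoter and copy number are not given in the sources used here. Each library was made from the mPFC of a pair of mice of the same genotype, so a replicate is a pool. The values are normalized counts, which are read counts per gene divided by a size factor for each library. They are not whole numbers of reads, and a library summed to between 28363967 and 29447717 of them.

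Shank proteins sit in the postsynaptic density, the dense protein layer under the membrane of excitatory synapses. They hold ankyrin repeats, an SH3 domain, a PDZ domain, a proline-rich stretch and, at the end, a SAM domain with which they assemble into sheets. The PDZ domain binds SAPAP proteins (the *Dlgap* genes), which in turn bind PSD-95 (*Dlg4*) and so reach the NMDA receptor, while the proline-rich stretch binds Homer and cortactin and so reaches the group I metabotropic glutamate receptors and the actin cytoskeleton. Mutations and copy number changes of *SHANK3* are associated with autism spectrum disorder and other psychiatric disorders. All 3 family members are expressed in the cortex.

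The positions of the genes are those of GRCm38, the build that the study used. *Shank1* (ENSMUSG00000038738) lies on chromosome 7 from 44310253 to 44360572, *Shank2* (ENSMUSG00000037541) on chromosome 7 from 144001928 to 144424494 and *Shank3* (ENSMUSG00000022623) on chromosome 15 from 89499623 to 89560261, all on the plus strand. GENCODE lists 6 transcripts of *Shank1*, 6 of *Shank2* and 9 of *Shank3*, and the deposited values sum over the transcripts of a gene. Reads of the transgene and of the mouse's own *Shank3* therefore cannot be told apart in the value of *Shank3*, and neither can its transcripts. Whether the sequence of the transgene was part of the index that reads were assigned to is not given in the sources used here.

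Because the 3 genes are related, the sequence that their annotated transcripts share was measured first, as it bears on whether reads of one could be counted for another. Over the longest transcript of each gene, the aligned coding sequences were 66.8% identical between *Shank1* and *Shank2*, 65.2% between *Shank1* and *Shank3* and 65.4% between *Shank2* and *Shank3*. No stretch of 31 bases, the default word length of a Salmon index (the setting used is not given in the sources used here), occurred in transcripts of more than one of the 3 genes on either strand. The longest run shared by *Shank1* and *Shank3* was 26 bases long, against 20 for *Shank1* and *Shank2* and 18 for *Shank2* and *Shank3*. The run of 26 bases is shown here within its exon because it is the closest point between the overexpressed gene and another family member. It lies in coding sequence, in the part that encodes the ankyrin repeats, in exon 5 of *Shank1* (chr7:44316093-44316118) and exon 4 of *Shank3* (chr15:89503180-89503205). Each line below is read from 5′ to 3′ and holds 89 bases, chr7:44316053-44316141 for *Shank1*, chr7:144057707-144057795 in exon 5 for *Shank2* and chr15:89503140-89503228 for *Shank3*. Capitals mark the bases of the shared run.
Shank1: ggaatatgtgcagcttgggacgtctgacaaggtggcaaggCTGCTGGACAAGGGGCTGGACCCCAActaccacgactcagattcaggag
Shank2: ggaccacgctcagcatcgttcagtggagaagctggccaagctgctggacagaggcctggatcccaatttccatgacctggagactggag
Shank3: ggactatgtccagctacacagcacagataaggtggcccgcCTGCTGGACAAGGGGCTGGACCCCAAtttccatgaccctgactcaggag
Over these 89 bases *Shank1* was identical to *Shank3* at 69 positions (77.5%) and *Shank2* at 61 (68.5%), and *Shank2* differed from the run at 4 of its 26 positions.

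The first question was whether *Shank3* was higher in the *Shank3* TG mPFC, which is also the check of the genotype labels. *Shank3* had 17470, 19004 and 16310 normalized counts in TG-1, TG-2 and TG-3, against 8374, 8173 and 6791 in WT-1, WT-2 and WT-3. The groups were far apart, as the lowest *Shank3* TG library (TG-3) stood 7937 above the highest WT library (WT-1). The mean was 17595 ± 1351 (SD, n = 3) for *Shank3* TG and 7779 ± 862 for WT, a difference of 9815 normalized counts or an increase of 126%. On the scale log2(normalized count + 1), on which all fold changes here are given, the log2 fold change was 1.18 (standard error 0.10), with a 95% interval from 0.94 to 1.42, or 1.92-fold to 2.67-fold.

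*Shank3* had the smallest p-value of the 16714 genes tested, those whose mean over the 6 libraries reached 5 normalized counts. Its unadjusted p-value in limma's two-sided moderated test was 3.85e-06. After Benjamini-Hochberg adjustment over all tested genes it was 0.0643, above the threshold of 0.05, and 0 genes (0%) passed that threshold, while 336 genes (2.01%) had an unadjusted p-value under 0.05. With the replicate number as a block in limma, the log2 fold change kept its value with a 95% interval from 1.05 to 1.32, the adjusted p-value was 0.000437, and *Shank3* was the 1 gene called (0.00598% of those tested). The call thus depended on the model, while the fold change was between 1.09 and 1.24 on the log2 scale with each library left out in turn. Leaving out WT-3, the WT library lowest in *Shank3*, gave a limma adjusted p-value of 0.0481, and leaving out any 1 of the other libraries gave values between 0.154 and 0.703, the highest without TG-1. Over all tested genes, 146 had a change at least as large as *Shank3* in either direction, *Shank3* among them, and 81 were higher in *Shank3* TG. Of the 5687 tested genes whose mean reached 1000 normalized counts, 3 had such a change. Beside *Shank3* these were *Gm9843* (1.82) and *Gm28661* (-1.35 on the log2 scale), named after their values were seen.

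The second question was whether the other family members differed between the genotypes. *Shank1* had 18543, 20010 and 19564 normalized counts in TG-1, TG-2 and TG-3, and 20001, 18744 and 18191 in WT-1, WT-2 and WT-3. The highest WT library lay between the highest and the next of the *Shank3* TG libraries, so the groups overlapped. The means were 19372 ± 752 in *Shank3* TG and 18979 ± 928 in WT (SD, n = 3), and the log2 fold change was 0.03 (standard error 0.07), with a 95% interval from -0.14 to 0.20, that is from 0.908-fold to 1.15-fold.

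*Shank2* had 7929, 8351 and 7354 normalized counts in TG-1, TG-2 and TG-3, and 7665, 7830 and 7119 in WT-1, WT-2 and WT-3. These groups overlapped as well, although the *Shank3* TG library was the higher one at each replicate number. The means were 7878 ± 501 in *Shank3* TG and 7538 ± 372 in WT (SD, n = 3), and the log2 fold change was 0.06 (standard error 0.08), with a 95% interval from -0.12 to 0.24, or 0.922-fold to 1.18-fold. Neither gene passed limma's test, with unadjusted p-values of 0.692 for *Shank1* and 0.442 for *Shank2* and adjusted p-values of 1 for both. A p-value of this size does not show that the levels were equal, and the intervals give the changes that the 3 pools per genotype leave possible. Of the 3 family members, *Shank3* was the 1 gene whose groups did not overlap, against 6.02% of all tested genes in either direction and 2.91% with *Shank3* TG higher.

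**Figure D1:**
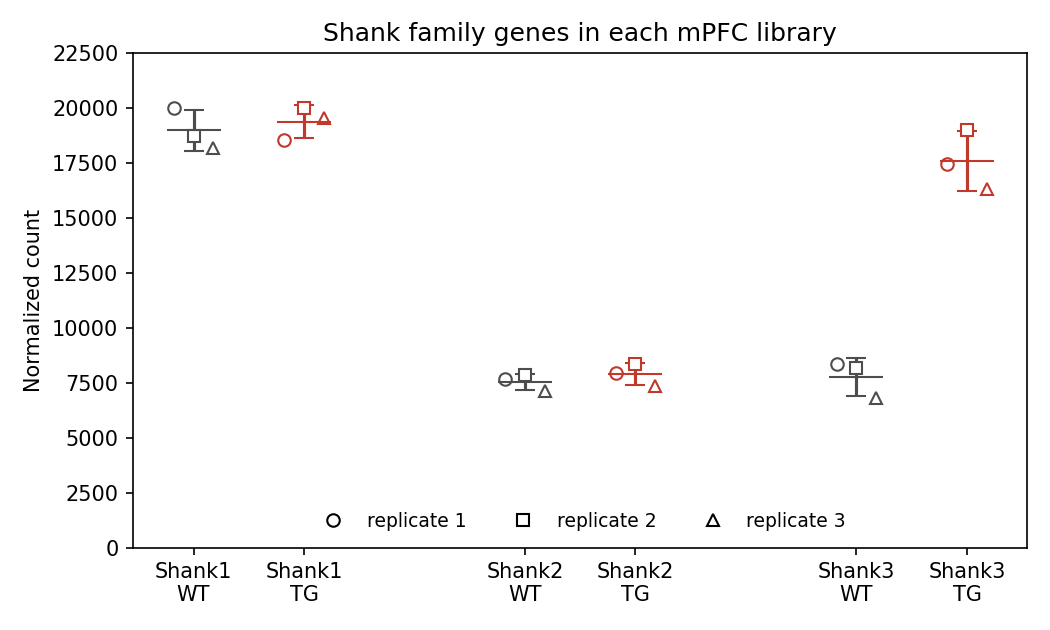
Normalized counts of *Shank1*, *Shank2* and *Shank3* on a linear axis from 0, with WT in grey and *Shank3* TG in red. Each symbol is a library, its shape gives the replicate number, and the horizontal line and bar are the mean ± SD (n = 3). The *Shank3* TG libraries lie between 16310 and 19004 for *Shank3*, above the WT libraries at 6791 to 8374, and the groups overlap for the other 2 genes.

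The replicate numbers set a common order on part of the family. The libraries numbered 3 had the lowest *Shank3* and the lowest *Shank2* of their genotype in both *Shank3* TG and WT, whereas for *Shank1* the lowest library was TG-1 in *Shank3* TG and WT-3 in WT. Within each replicate number, *Shank3* TG minus WT was 1.06, 1.22 and 1.26 on the log2 scale for *Shank3*, a difference of the same sign in 3 of 3 pairs. It was 0.05, 0.09 and 0.05 for *Shank2*, again positive in 3 of 3 pairs, and -0.11, 0.09 and 0.10 for *Shank1*. With the block, the 95% interval in limma was -0.05 to 0.18 for *Shank2* and -0.11 to 0.17 for *Shank1*, and neither passed the threshold.

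The spread between pools differed among the members. The residual SD on the log2 scale was 0.06 for *Shank1*, 0.08 for *Shank2* and 0.14 for *Shank3*. Tested genes of like level (within a factor of 2 of the member's mean) had a median residual SD of 0.10 around *Shank1*, 0.11 around *Shank2* and 0.10 around *Shank3*, and 20.2%, 29.2% and 71.5% of them had a smaller one than the member. In this fit, which has no block, *Shank1* and *Shank2* therefore had less spread than most genes of their level, and *Shank3* had more. With the block, the standard error was 0.063 for *Shank1*, 0.051 for *Shank2* and 0.059 for *Shank3*, so that of *Shank3* was no longer the largest. The coefficient of variation of *Shank3* was 7.68% in *Shank3* TG and 11.1% in WT.

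Whether *Shank3* moved apart from its relatives was read from ratios within each library, which do not depend on the scaling of the library. The log2 ratio of *Shank3* to *Shank1* was -0.09, -0.07 and -0.26 in TG-1, TG-2 and TG-3 and -1.26, -1.20 and -1.42 in WT-1, WT-2 and WT-3, a difference of 1.15 between the genotype means. The log2 ratio of *Shank3* to *Shank2* was 1.14, 1.19 and 1.15 in *Shank3* TG and 0.13, 0.06 and -0.07 in WT, a difference of 1.12. The SD of the ratio to *Shank2* was 0.02 among the *Shank3* TG libraries and 0.10 among the WT libraries. For both ratios the genotypes were without overlap, and both gave p = 0.1 in an exact two-sided permutation test, the smallest p-value that 3 libraries against 3 allow. The log2 ratio of *Shank2* to *Shank1* was -1.30 ± 0.10 (SD, n = 3) in the *Shank3* TG libraries and -1.33 ± 0.06 in the WT libraries, which differed by 0.03 with overlapping groups (exact permutation test, p = 0.8). Adjusted over these 3 ratios, the exact p-values were 0.15, 0.15 and 0.8, so this design cannot bring them under the threshold.

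Levels of different genes were compared per length, as normalized counts per kb of union exon length, which was 10514 bases for *Shank1*, 10768 for *Shank2* and 9189 for *Shank3*. In WT, *Shank1* was the most abundant member at 1805 ± 88.2 normalized counts per kb (SD, n = 3), followed by *Shank3* at 847 ± 93.8 and *Shank2* at 700 ± 34.5. The step from *Shank1* to *Shank3* was 2.13-fold. The step from *Shank3* to *Shank2* was 1.21-fold, with libraries of *Shank3* from 739 to 911 and of *Shank2* from 661 to 727, which did not overlap. In *Shank3* TG, *Shank3* had 1915 ± 147 and *Shank1* 1843 ± 71.5 normalized counts per kb, and their ranges of 1775 to 2068 and 1764 to 1903 overlapped, so that the order of these neighbours was within the spread. *Shank2* stayed the lowest at 732 ± 46.5. With the length of the longest coding transcript in place of the union of exons (9826, 8988 and 7365 bases for *Shank1*, *Shank2* and *Shank3*), the order was the same but *Shank3* in *Shank3* TG, at 2389 ± 183, lay above the range of *Shank1* (1887 to 2036). The lengths that the mPFC transcripts have were not measured, so these levels carry that uncertainty as well.

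*Shank3* made up 25.2% ± 1.39 (SD, n = 3) of the summed family level per kb in WT and 42.6% ± 1.33 in *Shank3* TG. The shares were 25.8%, 26.2% and 23.6% in the WT libraries and 43.2%, 43.6% and 41.1% in the *Shank3* TG libraries, without overlap. The difference of 17.4 percentage points gave the smallest p-value of the exact two-sided permutation test, 0.1. The family sum was 3352 ± 202 normalized counts per kb in WT and 4489 ± 227 in *Shank3* TG, 1.34-fold higher, also without overlap. The share of *Shank1* went from 53.9% ± 1.41 to 41.1% ± 1.73 and that of *Shank2* from 20.9% ± 0.628 to 16.3% ± 0.461. The mean levels per kb of both were not lower in *Shank3* TG (1843 against 1805 in WT for *Shank1*, 732 against 700 for *Shank2*). Their shares thus fell as the sum grew.

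**Figure D2:**
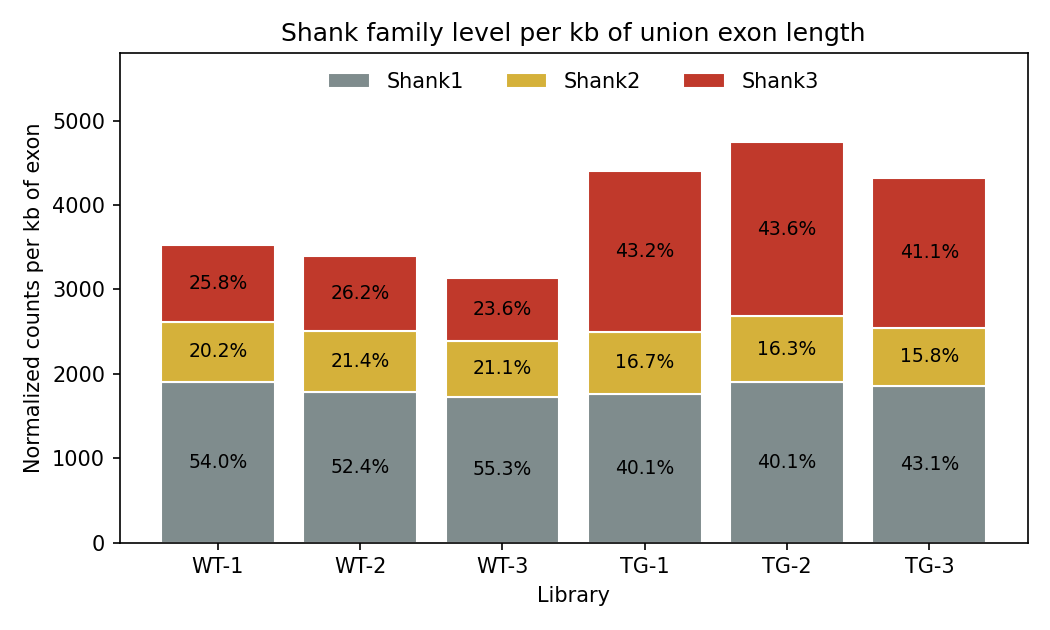
Stacked bars of the normalized counts per kb of union exon length of *Shank1*, *Shank2* and *Shank3* in each of the 6 libraries, with the percent of the family sum printed in each segment. The *Shank3* segment is 23.6% to 26.2% of the sum in WT and 41.1% to 43.6% in *Shank3* TG, while the other segments keep about the same height.

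The genes next to *Shank3* on chromosome 15 were examined to see whether the difference extended to them. The nearest genes of the deposited table are *C730034F03Rik*, *Mapk8ip2* and *Arsa* before the start of *Shank3* and *Acr*, *Rabl2* and *Syt10* after its end. *Arsa*, which encodes the lysosomal enzyme arylsulfatase A, lies 22198 bases away and had 912, 906 and 933 normalized counts in TG-1, TG-2 and TG-3 and 917, 865 and 930 in WT-1, WT-2 and WT-3, a log2 fold change of 0.02 (95% interval -0.15 to 0.20). *Mapk8ip2*, which encodes a scaffold of the JNK pathway, lies 35155 bases away and had a log2 fold change of 0.01 (-0.14 to 0.16). Both intervals lay wholly below that of *Shank3*.

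*Acr*, which encodes the sperm protease acrosin and was low here, begins 8065 bases after the end of *Shank3*. Its normalized counts were 58.0, 45.5 and 61.6 in TG-1, TG-2 and TG-3 and 40.9, 42.2 and 42.6 in WT-1, WT-2 and WT-3. The groups did not overlap, with *Shank3* TG higher, as in 2.91% of all tested genes. The log2 fold change of 0.37 had a 95% interval from -0.08 to 0.82. *Acr* did not pass limma's test, with an adjusted p-value of 1 (0.0915 before adjustment). *Rabl2*, a small GTPase gene 22272 bases away, had a log2 fold change of -0.03 (-0.26 to 0.21). *C730034F03Rik* and *Syt10* had log2 fold changes of -0.04 and -0.33 with wide intervals. None of the 6 neighbours passed the threshold in limma with or without the block. *Gm15609*, a long noncoding RNA on the opposite strand, overlaps *Shank3* in the annotation. It is not among the genes of the deposited table, so it could not be analysed. The strand setting of the counting is not given in the sources used here.

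**Figure D3:**
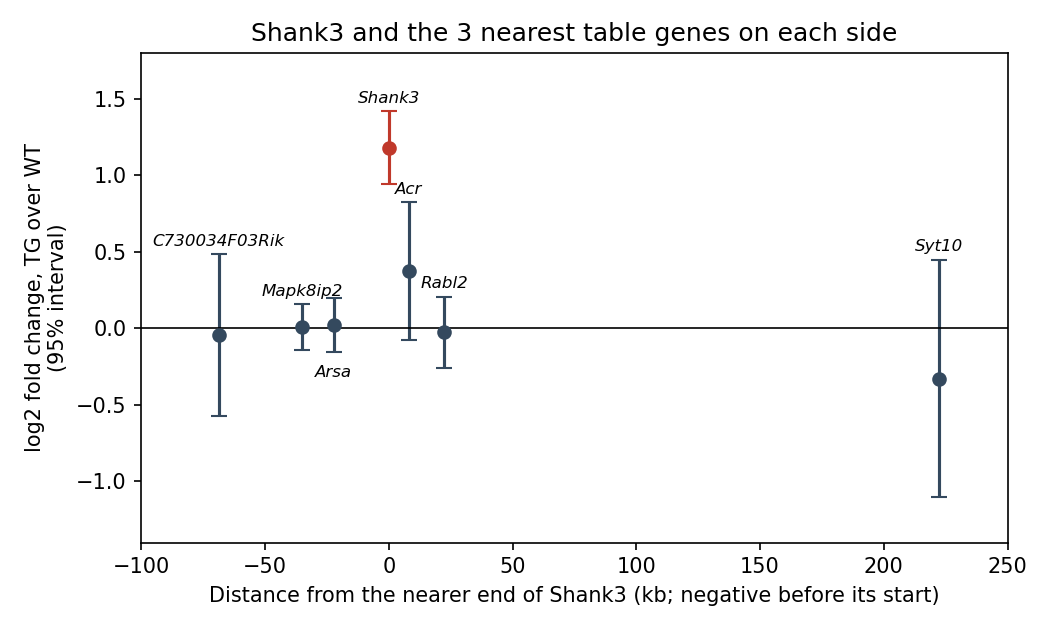
Log2 fold change (*Shank3* TG over WT) with its 95% interval from limma against the distance in kb from the nearer end of *Shank3*, for *Shank3* (red) and the 3 nearest genes of the table on each side. *Shank3* stands at 1.18, *Mapk8ip2*, *Arsa* and *Rabl2* lie within 0.03 of 0, and *Acr* lies at 0.37 with an interval that includes 0.

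The family was then set beside 29 genes of the complex that Shank proteins belong to, a list written from textbook knowledge. All 29 were tested, and 0 of them passed the threshold in limma, with or without the block. Without adjustment, 0 had p under 0.05 (2.01% of all tested genes did). With the block 1 of the 29 had, against 833 of all tested genes (4.98%), and it was *Arhgap44*, a gene for a GTPase-activating protein with a log2 fold change of 0.18. Its adjusted p-value with the block was 0.887 in limma. The median log2 fold change of the 29 genes was 0.03, against -0.004 over all tested genes, with values from -0.06 to 0.18. Tested genes within a factor of 2 of the mean of *Shank2* had quartiles of -0.03 and 0.05, and 0.03 lay between them. Of the 29 genes, 22 had a positive and 7 a negative value, against 8119 and 8595 of all tested genes. The 1 gene with groups without overlap was *Abi1*, with *Shank3* TG higher, against 2.91% of all tested genes in that direction.

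Among the direct links of the PDZ domain, the SAPAP genes *Dlgap1*, *Dlgap2*, *Dlgap3* and *Dlgap4* had log2 fold changes of 0.0001, -0.0001, 0.04 and -0.06. *Dlgap3*, the member best known from the striatum, had 11292 ± 397 normalized counts in *Shank3* TG and 11003 ± 1275 in WT (SD, n = 3). *Dlg4*, which encodes PSD-95, had 25122 ± 2046 in *Shank3* TG and 24012 ± 3219 in WT, with a fitted log2 difference of 0.07 (standard error 0.12). It was lowest in TG-3 and WT-3, at 22763 and 20472, as *Shank2* and *Shank3* were.

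The Homer genes *Homer1*, *Homer2* and *Homer3*, whose products bind the proline-rich stretch, had log2 fold changes of 0.01, 0.03 and 0.06. *Homer1* varied widely between pools, with 7426, 8203 and 5832 normalized counts in TG-1, TG-2 and TG-3 and 6397, 9147 and 5920 in WT-1, WT-2 and WT-3. *Cttn*, which encodes cortactin and lies next to *Shank2* on chromosome 7, had means of 3084 ± 221 (*Shank3* TG) and 2958 ± 268 (WT), a log2 difference of 0.06 (standard error 0.09).

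The smallest p-values of the list on the side higher in *Shank3* TG were those of *Abi1* and *Arhgap44*. *Abi1*, which encodes a subunit of the WAVE actin regulatory complex, had 2963, 3020 and 3018 in TG-1, TG-2 and TG-3 and 2780, 2767 and 2859 in WT-1, WT-2 and WT-3. Its log2 difference was 0.10 (standard error 0.06), with a limma p-value of 0.158 before adjustment and an adjusted one of 1. *Arhgap44* had 4623, 4614 and 3815 in TG-1, TG-2 and TG-3 and 4278, 4312 and 3064 in WT-1, WT-2 and WT-3, lowest in the libraries numbered 3 and with overlapping groups. On the lower side the smallest p-values were those of *Gria2* (0.754 in limma), an AMPA receptor subunit, and *Dlg2* (0.761 in limma), a relative of *Dlg4*, both with log2 fold changes of -0.03. The intervals of the 29 genes reached from -0.60 to 0.52, so all of them ended below the 0.94 at which the interval of *Shank3* began.

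**Figure D4:**
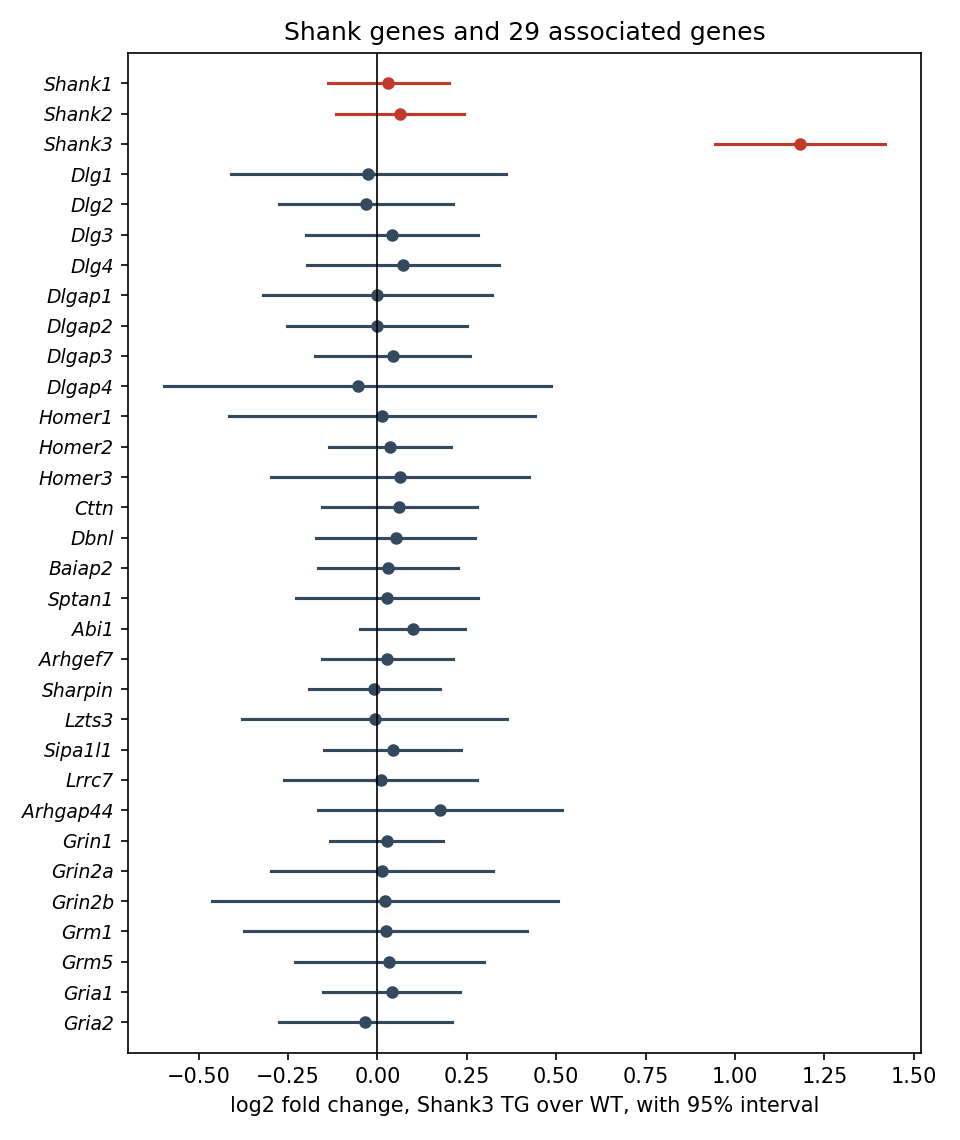
Log2 fold change of *Shank3* TG over WT with its 95% interval from limma, for the Shank genes (red) and 29 genes of the Shank-associated complex (blue). *Shank3* stands at 1.18, and every other interval in the plot includes 0.

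The genes whose pattern over the 6 libraries was most like that of each member were found by the root mean square difference of log2(normalized count + 1), after each gene's mean over the libraries was subtracted. For *Shank3* the nearest genes were *Il27ra*, *Atp6v0a4* and *Tnni3k*, at differences of 0.21, 0.24 and 0.24, against a median of 0.62 over all tested genes. All 3 were low. The WT mean was 3.69 for *Il27ra*, 5.42 for *Atp6v0a4* and 5.56 for *Tnni3k*, and the *Shank3* TG means were 8.62, 12.7 and 12.5. *Il27ra* was thus under 5 in WT and passed the filter, set on the mean over the 6 libraries, only through its *Shank3* TG values. The likeness of these genes to *Shank3* rests on values near the filter and carries little weight. No tested gene came within 0.1 of *Shank3*. For *Shank1* the nearest were *Prkag2*, *Cryl1* and *Tsc2*, and for *Shank2* they were *Ranbp10*, *Atg12* and *Bicdl1*, all at differences of at most 0.02. Within 0.1 of *Shank1* and *Shank2* lay 3693 and 3799 genes, so that many genes were about as near.

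The tissue label was checked against marker genes. The excitatory neuron markers *Slc17a7*, *Camk2a*, *Neurod6* and *Tbr1* were all present, with *Camk2a* at 116681 normalized counts in *Shank3* TG and 113020 in WT. Their summed level ranged from 154992 to 180303 in *Shank3* TG and from 149927 to 173408 in WT, and 0 of 4 passed limma's test (0 without adjustment). Most of this sum was *Camk2a*. *Slc17a7*, the vesicular glutamate transporter gene, was the 1 marker of the 4 without overlap, higher in *Shank3* TG, against 2.91% of all tested genes in that direction. Its normalized counts were 42302, 42776 and 45669 in TG-1, TG-2 and TG-3 and 39218, 40002 and 39794 in WT-1, WT-2 and WT-3. Its log2 difference was 0.13 (adjusted p-value of 1 in limma). In bulk tissue, fewer cells of a type and less RNA per cell cannot be told apart. The 5 inhibitory neuron, 5 astrocyte, 5 microglia and 5 endothelial markers had sums with overlapping ranges, and 0 of them had an unadjusted p-value under 0.05. The 6 striatal neuron markers, of interest because *Shank3* is abundant in the striatum, summed to 2559 to 2866 in *Shank3* TG and 2644 to 2761 in WT, with the genotype means of *Drd2* and *Gpr6* between 12.1 and 16.5 normalized counts. Most of that sum was *Ppp1r1b* (log2 fold change 0.07). The other 5 markers had negative values, among them *Rgs9* (-0.35), *Drd2* (-0.45) and *Adora2a* (-0.31), and the median over all 6 was -0.19. *Adora2a* was the 1 marker without overlap (means of 48.2 in *Shank3* TG and 60.2 in WT), against 3.12% of all tested genes in that direction. None of the 6 passed limma's test, and 0 had p under 0.05 before adjustment. The 5 oligodendrocyte markers summed to between 15070 and 20720 in *Shank3* TG and between 23122 and 27757 in WT, without overlap. None of the 5 passed limma's test (adjusted p-value of 1, and at least 0.35 with the block), although all had negative log2 fold changes, with a median of -0.50. Before adjustment 4 had p under 0.05 in limma (2.01% of all tested genes) and 5 with the block (4.98%), and 4 had groups without overlap, lower in *Shank3* TG (3.12%), *Mag* being the marker that overlapped. Of the 5 choroid plexus markers *Otx2* was under the filter, and the other 4 summed to between 91.4 and 536 in *Shank3* TG and between 76.0 and 139 in WT. The 1 of these with p under 0.05 before adjustment was *Ttr*, the transthyretin gene, which held nearly all of the difference, with 127, 22.9 and 445 normalized counts in TG-1, TG-2 and TG-3 and 14.3, 12.6 and 41.7 in WT-1, WT-2 and WT-3, overlapping groups and an adjusted p-value of 1 in limma (0.35 with the block). It was higher in *Shank3* TG in 3 of 3 pairs of the same number. The part of these markers in the values of the Shank genes was not tested.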

How the data were processed

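Total mPFC RNA was made into stranded mRNA libraries, and the authors estimated transcript abundance with Salmon 0.9.1 on GRCm38 with GC bias correction, brought it to genes with tximport and divided it by size factors in DESeq2 1.19.11. What was deposited is this signal, normalized counts that are not whole, so a model for raw counts could not be fitted to them as in the study. Counting intervals were not computed.

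Names and lengths came from GENCODE M21 (GRCm38), which named 18215 of the 18254 genes. In R 4.3.3 with limma 3.58.1, the 16714 genes whose mean reached 5 normalized counts were fitted as log2(normalized count + 1) on genotype (lmFit, eBayes with a trend; two-sided, Benjamini-Hochberg, threshold 0.05). Single ratios and shares used exact permutation tests over the 6 libraries. The fit was checked on simulated data.

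The replicate numbers of both genotypes were compared by the correlation across genes of deviations from the genotype means. It was 0.302, 0.332 and 0.616 for the libraries numbered 1, 2 and 3. Between numbers 1 and 2 it was nearly as high, at 0.266 (TG-1 with WT-2) and 0.227 (TG-2 with WT-1). For a library numbered 3 with one numbered 1 or 2 it ran from -0.443 to -0.389. The check thus sets number 3 apart and tells number 1 from number 2 only weakly. The block rests on that check. The methods speak of pairs of samples and of WT littermates, without saying what a shared number marks. P-values measure the spread between pools.

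Members, lists and tests were chosen with earlier results of these data known. Genes named beyond the members were the list's smallest p-values and main scaffolds, the table neighbours of *Shank3*, the nearest patterns, and markers that were low or moved with genotype. *Gm9843*, *Gm28661*, *Cttn* and single markers were named after their values were seen. The alternatives were other pseudocounts, filters, scalings, eBayes options, the block, an empirical null, other lengths, and each library left out. From the lists, 1 associated gene and 1 excitatory neuron marker are not reported here, for a reason unrelated to their values, and all counts and sums of those lists cover the remaining genes.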

Additional observations from a re-analysis of the deposited data

How the results depend on the processing

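*Shank1* and *Shank2* stayed above the threshold, before and after adjustment, with a positive log2 fold change under all 16 alternatives, from 0.000009 to 0.07 and from 0.02 to 0.11. The smallest value of *Shank1* came without WT-3, so its sign carries no weight. *Shank3* kept its log2 fold change, 1.18 with eBayes' robust option (limma adjusted p = 0.0307), under the replicate block (0.000437) and under an empirical null, in which z-scores were divided by their observed width (4.46e-06), and all of these passed the threshold that the fit as reported (0.0643) did not. Of its 16 alternatives, 12 stayed above the threshold, among them eBayes without a trend (adjusted p = 0.588 in limma), quantile normalization (0.0931) and upper quartile scaling (0.0566). With each library left out in turn it ranged from 1.09 to 1.24. The adjusted p-value was highest, 0.703, without TG-1. The number of genes called was 0 as reported, 1 with the robust option, 1 with the replicate block and 26 with the empirical null, and 0 to 1 with each library left out, the 1 without WT-3. The Shank-associated list had 0 calls throughout. The log2 ratio of *Shank2* to *Shank1* turned to -0.0040 without TG-1 and ranged from -0.0040 to 0.089 with single libraries left out. The ratios of *Shank3* to *Shank1* and *Shank2* ranged from 1.09 to 1.21 and 1.06 to 1.16, and the change in the share of *Shank3* from 16.6 to 18.2 percentage points over the other lengths, the pairing and the left-out libraries. With the pairing, the smallest two-sided p of exact sign flips of 3 pairs is 0.25, and the replicate block changed no call but that of *Shank3*. No scaling moved the median of all genes by 0.1. The 95% intervals of *Shank1* and *Shank2* give the changes compatible with 3 pools per genotype and are not a limit of detection.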

Other observations

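The summed level of the Shank family was set beside the sums of its partner groups per kb of union exon length, a comparison chosen after the values of the members were seen and given without a test. The 4 PSD-95 family genes summed to 3899 ± 342 normalized counts per kb in *Shank3* TG and 3815 ± 484 in WT (SD, n = 3), the 4 SAPAP genes to 5004 ± 438 and 4996 ± 337, and the 3 Homer genes to 863 ± 84.8 and 856 ± 141. The ratio of the Shank sum to the PSD-95 family sum was 1.08 to 1.23 in the *Shank3* TG libraries and 0.829 to 0.961 in the WT libraries. The ratio to the SAPAP sum was 0.785 to 1.01 against 0.583 to 0.721, and the ratio to the Homer sum was 5.04 to 5.58 against 3.34 to 4.49. All of these ranges were apart between the genotypes. The partner sums in *Shank3* TG were 1.02-fold (PSD-95 family), 1.00-fold (SAPAP) and 1.01-fold (Homer) those in WT. The Shank sum holds *Shank3*, so the ratios restate its difference and are not separate observations. These are levels of mRNA, and protein was not measured here.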
